A study of Caenorhabditis elegans with 2 samples.

Results

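The peaks described here are those of the tagged zinc finger protein LSY-2 whose summit lay inside an annotated protein-coding gene on an autosome of Caenorhabditis elegans. They were chosen by position alone: 401 of the 1293 autosomal peaks in the authors' optimal list had a summit between the first and the last annotated base of at least 1 protein-coding gene. The other autosomal peaks numbered 892, and 270 peaks lay on chromosome X. The data came from chromatin immunoprecipitation and sequencing (ChIP-seq) of whole L4 larvae, the last larval stage, with males and hermaphrodites pooled. The animals were of strain OP240, genotype unc-119(ed3) III; wgIs240, which carries an integrated eGFP-lsy-2 transgene in a background mutant for unc-119. There were 2 biological replicates of this 1 group and no other genotype, stage or treatment, so the results are positions and signals of peaks, not changes between conditions. The antibody is labelled only by its target, lsy-2, and whole animals mix all tissues, so a peak cannot be assigned to a cell type.

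LSY-2 is a C2H2 zinc finger transcription factor known for its part in setting the left and right fates of the ASE taste neurons. Worm genes are compact, with mostly short introns, and the longer introns are places where enhancers, alternative promoters and small noncoding genes are found. A gene can have several annotated transcript starts; a start at least 100 bp downstream of the most upstream one is called internal here. A gene that holds a peak summit is called its host.

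Most of these peaks lay in introns rather than in coding sequence. To show what sequence lay under such summits, the summit base with 50 bases on either side is printed for 8 intronic peaks, from the RefSeq copy of the WBcel235 (ce11) assembly, plus strand, 5′ to 3′. The first 4 are the strongest intronic peaks on chromosomes II to V whose window holds GAGACGCAG. The next 2 hold only GAGAGA. The last 2 are the strongest peak beside a nested small nucleolar RNA gene and the peak farthest from any protein-coding start. Capitals mark every match, on either strand, to GAGAGA and to the pair of shorter strings that make up GAGACGCAG. That pair is ACGCAG and CGTCTC, the second of them read as its reverse complement and overlapping the first by 3 letters.
Y111B2A.12 intron 4 (chrIII:12612614-12612714): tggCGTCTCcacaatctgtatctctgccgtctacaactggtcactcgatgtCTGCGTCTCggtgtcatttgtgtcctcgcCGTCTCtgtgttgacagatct
zfp-1 intron 9 (chrIII:8802059-8802159): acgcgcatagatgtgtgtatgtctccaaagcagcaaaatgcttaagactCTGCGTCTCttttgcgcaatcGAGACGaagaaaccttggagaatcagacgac
W06H8.6 intron 5 (chrV:6224620-6224720): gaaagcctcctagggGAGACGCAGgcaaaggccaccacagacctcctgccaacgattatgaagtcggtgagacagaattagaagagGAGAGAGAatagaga
F53C11.5 intron 1 (chrV:13789585-13789685): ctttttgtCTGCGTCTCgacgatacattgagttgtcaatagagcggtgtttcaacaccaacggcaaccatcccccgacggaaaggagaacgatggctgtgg
zfp-1 intron 4 (chrIII:8795862-8795962): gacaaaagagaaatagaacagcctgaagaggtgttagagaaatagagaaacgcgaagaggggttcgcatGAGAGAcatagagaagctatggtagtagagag
daf-5 intron 1 (chrII:14040379-14040479): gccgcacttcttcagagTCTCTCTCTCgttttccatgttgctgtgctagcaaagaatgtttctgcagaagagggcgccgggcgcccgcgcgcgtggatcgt
pxn-1 intron 17 (chrV:8500485-8500585): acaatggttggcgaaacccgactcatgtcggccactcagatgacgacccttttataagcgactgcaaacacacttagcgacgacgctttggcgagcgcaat
gcn-1 intron 11 (chrIII:2172152-2172252): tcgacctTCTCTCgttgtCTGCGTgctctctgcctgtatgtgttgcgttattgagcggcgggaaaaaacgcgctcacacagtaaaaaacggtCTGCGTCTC

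The windows of Y111B2A.12, zfp-1 intron 9, W06H8.6 and F53C11.5 each held 1 copy of GAGACGCAG on one strand or the other. That of Y111B2A.12 held 3 matches to CGTCTC, and that of pxn-1 held none of these strings. The gcn-1 window held 1 joint match, a further ACGCAG match and 1 GAGAGA match. A match is a description of the letters, not evidence of a binding site.

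Inside the host genes, introns held 273 of the 401 summits (68.1%, 95% exact interval 63.3 to 72.6%), against 52.5% of the autosomal bases inside protein-coding genes. Coding exons held 27 summits (6.73%, 4.48 to 9.65%), against 39.9% of those bases. Coding sequence was therefore the part of the genes with the fewest summits for its length. Other exonic sequence held 25.2% of summits (21.0 to 29.7%), against 7.62% of bases. Of these, 56 were in 5′ UTRs, 43 in 3′ UTRs and 2 in noncoding transcripts of the host. A base that was exonic in any transcript was counted as exonic. Intervals here cover counting error only, and sequencing depth is unknown. Genes as a whole held fewer summits than their length: 31.0% of autosomal peaks (28.5 to 33.6%) lay in genes, against 64.2% of autosomal bases. The share was lowest on chromosome IV, at 27.2% (21.7 to 33.3%), and between 31.4 and 32.2% on the other 4 autosomes, which lie inside that interval. Chromosome IV also had the smallest share of bases in genes, 59.8%, against 60.1 to 71.0% on the others.

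**Figure D1:**
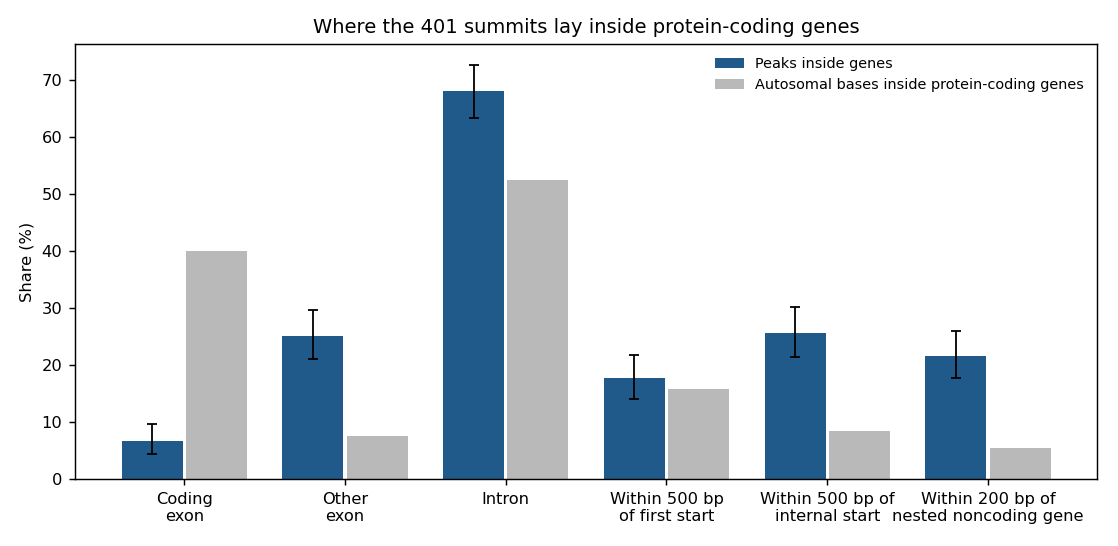
Share (%) of the 401 summits (blue, with 95% exact intervals) and of autosomal bases inside protein-coding genes (grey) by exon or intron and by nearby feature; a summit can count in several of the right 3 classes. Introns held 68.1% of summits against 52.5% of bases, and coding exons 6.73% against 39.9%.

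The intronic summits lay in long introns. The median intron with a summit was 3019 bp long, whereas the median intronic base lay in an intron of 946 bp. Introns of at least 5000 bp held 92 of the 273 (33.7%, 28.1 to 39.6%), against 12.8% of intronic bases. Introns under 500 bp held 34 (12.5%, 8.78 to 17.0%), against 29.3% of bases.

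First introns held 102 of the 273 intronic summits (37.4%, 31.6 to 43.4%), against 24.4% of intronic bases, when introns were numbered along the longest transcript over the summit. First introns are often long, so the share was also taken within length classes. Among introns of at least 5000 bp, 44.6% of summits (34.2 to 55.3%) and 39.8% of bases were in a first intron. From 1 to 2 kb the shares were 40.0% of summits (24.9 to 56.7%) and 20.4% of bases. The base share lay inside the interval of the summit share in the longest class and outside it from 1 to 2 kb; in the other 3 classes it lay inside. Introns from number 4 on held 108 summits (39.6%), against 46.6% of bases. Numbering along the shortest transcript over the summit instead gave 52.7% in first introns, without a matching base share.

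**Figure D2:**
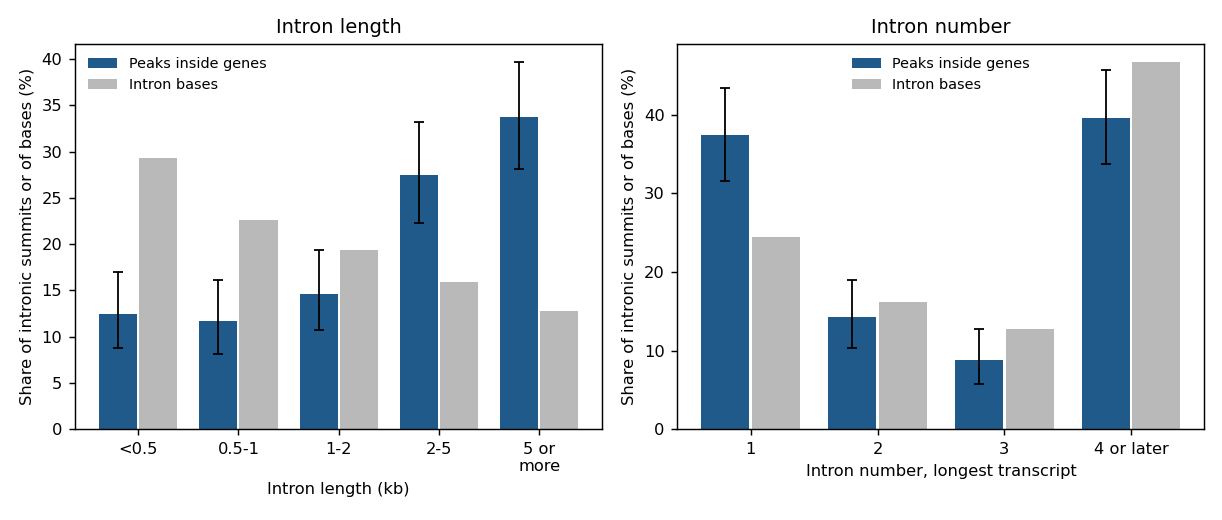
Share (%) of the 273 intronic summits (blue, with 95% exact intervals) and of intronic bases (grey) by intron length in kb (left) and by intron number in the longest transcript (right). Introns of at least 5 kb held 33.7% of summits against 12.8% of bases, and first introns 37.4% against 24.4%.

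Internal transcript starts lay near 103 of the 401 summits, within 500 bp (25.7%, 21.5 to 30.3%), against 8.51% of bases inside genes. The most upstream start of a host lay as near to 71 (17.7%, 14.1 to 21.8%), against 15.9% of bases, a base share inside that interval. Of the 103, 84 summits lay upstream of the internal start. Over all 103 the median position was -156 bp (quartiles -260.5 and -62.5). Summits in first introns had an internal start within 500 bp in 34 of 102 cases (33.3%), and those in later introns in 31 of 171 (18.1%). The matching shares of first-intron and later-intron bases were not taken, so this difference cannot be read as a trait of the peaks. Any protein-coding start, of the host or another gene, lay within 500 bp of 168 peaks inside genes (41.9%, 37.0 to 46.9%) and of 510 of the 892 other autosomal peaks (57.2%, 53.9 to 60.4%).

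**Figure D3:**
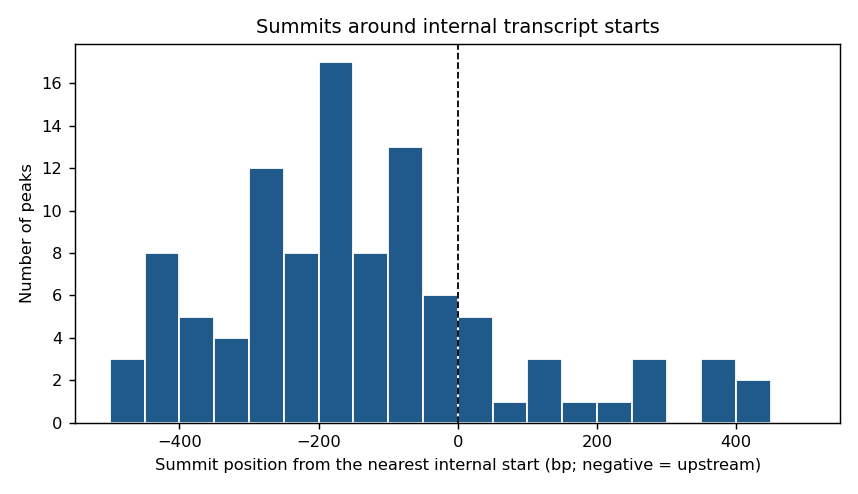
Number of peaks by the position of the summit (bp, 50 bp bins) from the nearest internal transcript start of the host, for the 103 within 500 bp; negative values are upstream. Of these, 84 lie left of 0, and the median over all 103 is -156 bp.

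Among the strongest peaks at internal starts were those of cox-6B, Y45G12B.3, drap-1, gldi-8 and hsp-90. cox-6B, which encodes a cytochrome c oxidase subunit, held a peak with a signal of 415.7 in the pooled list, 200.9 in replicate 1 and 215.4 in replicate 2, at 162 bp upstream of its internal start. Signal is the authors' own value per peak; each list has its own scale, and values compare only within a list. The peak lay in a first intron of 86515 bp, because 1 annotated transcript stretches cox-6B (WBGene00022170) over 87197 bp of chromosome III, and it also lay 92 bp upstream of a start of Y71H2AM.20. hsp-90, the HSP90 chaperone gene, had a first-intron peak of 319.6 (158.6 in replicate 1 and 162.9 in replicate 2), 378 bp upstream of an internal start and 297 bp from another gene's start. Y45G12B.3 had 402.7 (181.7 and 224.6 in replicates 1 and 2), 229 bp upstream. All 3 are therefore near more than 1 annotated start, and the peak cannot be assigned to either. gldi-8 had 369.9 (169.6 in replicate 1 and 200.1 in replicate 2), 24 bp downstream of an internal start.

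drap-1, a homolog of the corepressor DRAP1, held peaks of 397.7 and 256.7 on either side of an internal start, at -136 and 70 bp. Both carry the same interval in the deposited list and the same replicate candidates (169.5 in replicate 1 and 226.8 in replicate 2), so they are not 2 independent observations. 4 of the 401 peaks shared an interval with another in this way, the other pair being 2 summits of sec-61.A. The noncoding RNA genes F40F9.14 and F40F9.15, on opposite strands, overlap the stronger summit.

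Of the 71 within 500 bp of a host's most upstream start, 41 were in other exons, 22 in introns and 8 in coding exons, at a median of 88 bp from that start. sec-61.A, for the pore-forming subunit of the endoplasmic reticulum translocon, had 478.9 (224.4 in replicate 1 and 244.4 in replicate 2) in its 5′ UTR. ceh-38, a ONECUT homeobox gene, had 363.3 (145.3 and 210.6 in replicates 1 and 2), 29 bp from the start. rpl-19, for a large-subunit ribosomal protein, had 317.8 (152.0 and 162.8) in its first intron. Among the candidates of replicates 1 and 2 these peaks ranked 61 and 71 in sec-61.A, 121 and 88 in ceh-38, and 113 and 132 in rpl-19. All 3 were thus among the stronger candidates of both replicates.

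Another gene's start was the only protein-coding start within 500 bp for 25 summits, and 24 of them lay upstream of it. That gene lay wholly inside the host in 16 cases and on the opposite strand in 15. In cox-6B another summit, with a signal of 254.9 (120.4 in replicate 1 and 135.1 in replicate 2), lay 54 bp upstream of Y71H2AM.6, and the remaining one, 67.9 (43.1 and 20.9), lay 168 bp upstream of swsn-3. All 3 peaks of cox-6B lay in the long first intron of that 1 transcript, each within 200 bp of a start of another gene.

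Noncoding genes nested in a host lay within 200 bp of 87 summits (21.7%, 17.8 to 26.1%), against 5.43% of bases inside genes. For 64 of them there was no protein-coding start within 500 bp. Genes annotated plainly as ncRNA accounted for 67 (16.7%), against 2.10% of bases. Small nucleolar RNA genes, whose products guide RNA modification and are often processed from introns, were near 16 (3.99%, 2.30 to 6.40%), against 0.198% of bases. tRNA genes, transcribed by RNA polymerase III, were near 9 (2.24%, 1.03 to 4.22%), against 0.167%, and small nuclear RNA genes near 4, against 0.0589%. piRNA genes showed the opposite balance, with 1 summit (0.249%, 0.00631 to 1.38%) against 2.51% of bases; it was that of rpl-19.

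Counted from the noncoding side, 18 of the 206 autosomal nested snoRNA genes (8.74%) had a summit within 200 bp, as did 10 of 194 nested tRNA genes (5.15%) and 83 of 2479 ncRNA genes (3.35%). Only 1 of 88 nested miRNA genes had one, cel-mir-5595 in nurf-1, which encodes a chromatin-remodelling subunit. Summits lay upstream of the snoRNA gene in 12 of 18 pairs, with a median of -26.5 bp over all 18, and 13 of the 18 genes were on the host's strand. Of the 89 pairs with an ncRNA gene, 58 were on the strand opposite to the host, and 16 peaks had such genes on both strands. Strand was not counted over all nested genes of these classes, so neither strand split can be read as a trait of the peaks.

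The snoRNA peaks had a median signal of 77.6, the tRNA peaks 71.7 and the 4 snRNA peaks 128.1, against 83.1 for all 401. The snRNA peaks ran from 71.4 in mpc-1 to 161.8 in dhc-4 (64.3 in replicate 1 and 98.3 in replicate 2), and 2 of the 4 were in F58G1.7 and overlapped the same candidates in each replicate. The strongest snoRNA peak, in intron 17 of the peroxidasin gene pxn-1, had 126.0 (62.1 in replicate 1 and 61.5 in replicate 2), 44 bp upstream of ZK994.7. din-1, for a nuclear receptor corepressor, followed with 118.7 (82.6 and 48.4) over F07A11.15, though this summit was also 44 bp upstream of an internal start. haf-9, an ABC transporter gene, had 114.3 (54.5 and 58.7) at the first base of ZK484.9. The strongest tRNA peak, in col-72, a collagen gene, had 89.9 (39.2 and 49.9), 16 bp upstream of the tRNA gene. That summit was also 226 bp upstream of a start of the protein-coding gene W09G10.9. Of the 29 peaks beside a tRNA, snoRNA or snRNA gene, 26 were intronic and 23 had no protein-coding start within 500 bp.

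Neither a start nor a nested noncoding gene lay close to 169 of the 401 summits (42.1%), 119 of them in introns, at a median of 1494 bp from the nearest protein-coding start. The strongest of all the peaks inside genes belonged to this group: C34C12.2 had 698.2 (303.9 in replicate 1 and 394.2 in replicate 2, ranked 36 and 37) in a 5′ UTR exon 2637 bp downstream of the gene's only start region (summit at 3456423 on chromosome III). Next came Y111B2A.12, intron 4, with 338.4 (150.3 and 193.0), and slc-25A46, for a mitochondrial carrier family member, with 308.8 (126.5 and 171.1) in the 3′ UTR, 69 bp from the gene's end. The Sno/Ski homolog daf-5, of the dauer TGF-β pathway, had 219.3 (123.4 and 92.5) in a first intron of 14446 bp, 2708 bp from any start. epg-9, an autophagy gene, had 211.0 (106.4 and 110.5) in intron 2.

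Peaks over 2 kb from any protein-coding start numbered 81 (20.2%), 65 of them in introns, with a median signal of 80.0. The farthest was in intron 11 of gcn-1, a translation regulator acting with the kinase GCN2, 20257 bp from any start, with a signal of 91.6 (31.3 in replicate 1 and 54.5 in replicate 2). The next 4 were all in ppfr-1. Of the 43 peaks in 3′ UTRs, 38 lay within 500 bp of the host's end and 36 had no protein-coding start within 500 bp. Their median signal was 73.8.

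**Figure D4:**
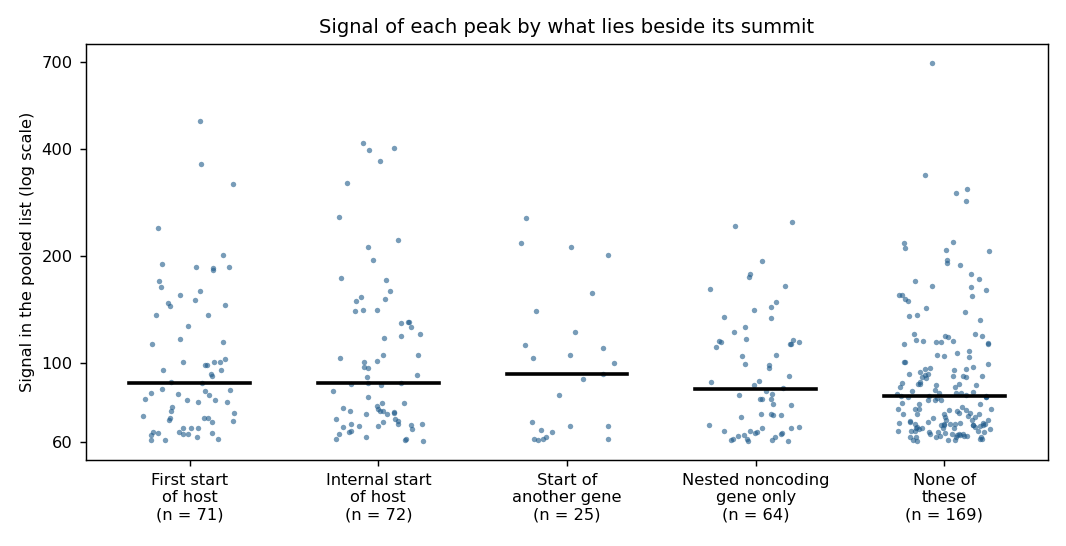
Signal of each of the 401 peaks in the pooled list (log axis) by what lay beside the summit, each peak placed in the first group from the left that it met; bars are medians. The medians run from 80.4 (none of these) to 92.9 (start of another gene), and the groups overlap throughout.

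Peaks inside genes had a lower median signal than the other autosomal peaks. Their median was 83.1 (quartiles 67.1 and 117.2), against 92.1 (71.9 and 156.6) for the other autosomal peaks and 89.8 for the whole list. They supplied 7 of the 100 strongest peaks, and their share of autosomal peaks was 22.8% in the strongest 25% of the list and 39.1% in the weakest 25%. Intronic members had a median of 86.4, those in coding exons 71.6, and first-intron members 91.6. All of the 25 strongest were among the strongest candidates of both replicates, taking from each as many candidates as the optimal list has peaks, and 17 of the 25 were in introns and none in a coding exon. The strongest peak in a coding exon had 163.0, in Y18D10A.4.

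A smaller share of the peaks inside genes than of the others was strong in both replicates. The strongest candidates of both replicates, taken in that number, overlapped 253 of the 401 (63.1%, 58.2 to 67.8%), against 649 of the 892 other autosomal peaks (72.8%, 69.7 to 75.7%) and 69.9% of the whole list. Another 66 were among the strongest of replicate 1 only, 71 of replicate 2 only and 11 of neither. Signal in the 2 replicates had a Spearman correlation of 0.54 over 399 peaks inside genes and 0.74 over 891 others, a description over peaks that share 1 list and its threshold. Pooled signals reached 698.2 inside genes and 7029 in the others, and the 2 sets were not compared at equal signal. Of the 126 members in the weakest 25% of the list, 18 were shared by both. The 3 weakest members, in nhr-88, C14B9.3 and enol-1, had signals from 60.3 to 60.4, at the floor of the list, and none was among the strongest candidates of both replicates. Within 50 bp of a gene's edge, 38 members just inside had a median signal of 81.2 and 61 other peaks just outside had 94.2.

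Host genes numbered 317, which is 1.84% of the 17242 autosomal protein-coding genes. They were long, with a median span of 5859 bp against 1964 bp over all these genes. Of the 1725 longest genes, those of at least 6587 bp, 8.46% were hosts, against 1.10% of the others. Internal starts were annotated in 211 hosts (66.6%), against 19.9% of all genes. Genes with internal starts were also hosts more often within each class of span: at 10 kb or more, 79 of 552 genes with an internal start (14.3%, 11.5 to 17.5%) and 14 of 295 without (4.75%, 2.62 to 7.83%) were hosts. Under 2 kb the shares were 2.36% and 0.359%. Their spans still differed within the class, with medians of 14587.5 and 12711 bp at 10 kb or more.

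Some hosts held several peaks. Of the 317, 62 held at least 2 summits and 17 at least 3, and the 62 held 148 of the 401 peaks. The closest other summit of the list lay within 2 kb for 27.2% of peaks inside genes, against 21.2% of the other autosomal peaks.

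zfp-1, which encodes a homolog of the chromatin protein AF10, held 5 summits over 14771 bp of chromosome III (8791535 to 8806305). None was within 500 bp of a zfp-1 start. Those in intron 4 had signals of 284.9 (103.6 in replicate 1 and 179.8 in replicate 2) and 249.0 (113.3 and 137.0). Those in intron 9 had 194.4, 60.6 and 300.2, the last with 126.2 in replicate 1 and 180.8 in replicate 2. The first 2 of intron 9 were 200 bp apart and overlapped the same candidates in each replicate. The strongest lay 710 bp upstream of the start of the short transcripts.

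ppfr-1, for a regulatory subunit of protein phosphatase 4, held 6 summits, all in introns 4 and 5 of 22 and none within 5 kb of a start. Their signals ran from 86.6 to 217.8 in the pooled list, from 33.4 to 126.5 in replicate 1 and from 53.2 to 97.5 in replicate 2. One of them, with 133.3, had no overlapping candidate in replicate 1. In 5 of the 6, a nested noncoding gene lay within 200 bp: the antisense RNA gene anr-20 with F16A11.7, then F16A11.13, F16A11.8 and F16A11.5. vhp-1, a MAP kinase phosphatase gene, also held 6, spread from 3121 to 15868 bp downstream of its start. They were weak, from 61.0 to 113.3, and the strongest, over the antisense RNA gene anr-54, had 23.0 in replicate 1 and 85.9 in replicate 2. pqn-41, for a protein with a glutamine- and asparagine-rich domain, held 4 of its 5 in intron 14, a 10372 bp intron of its longest transcript that holds 3 internal starts, with signals from 107.9 to 188.1. F57A8.1 held 4 of 5 in a first intron of 6256 bp, with signals from 61.9 to 207.5, and 3 of those 4 lay beside a nested ncRNA gene.

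**Figure D5:**
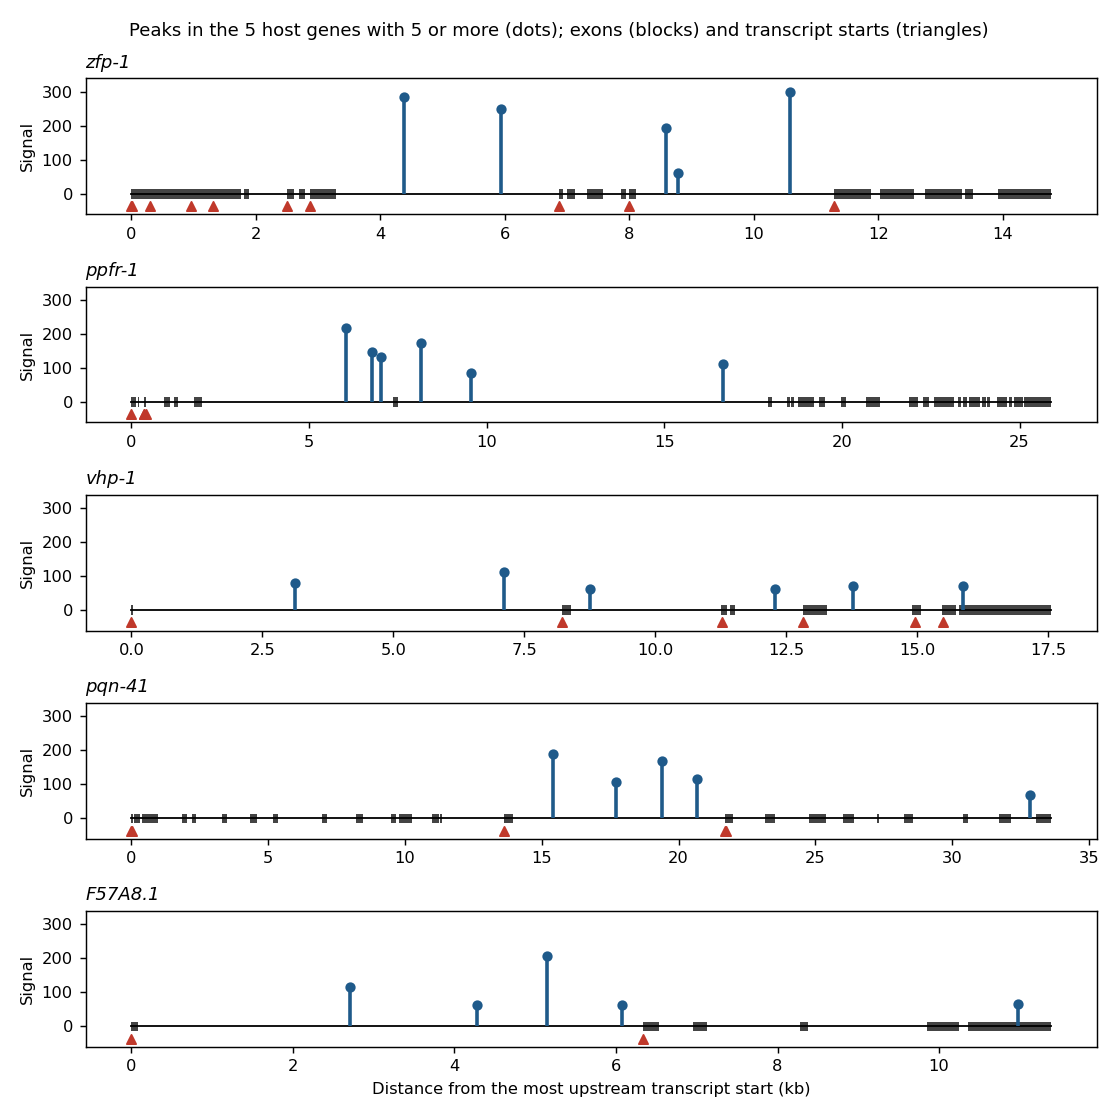
Signal of each peak in the pooled list (dots) against distance from the most upstream start (kb) in the 5 hosts with at least 5 peaks; blocks are exons of all transcripts and triangles are transcript starts. The peaks of ppfr-1 and zfp-1 stand in long introns away from the triangles.

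Of the 9 gene lists looked at, those of synaptic, transcription factor and signalling genes had the largest shares of hosts. The lists were written by hand from general knowledge, with earlier results on these data known, and are not complete. The host nhr-19, for example, is not counted on the transcription factor list. Shares are therefore of the listed genes, not of whole classes. Transcription factor genes were hosts in 22 of 145 cases (15.2%, 9.76 to 22.1%), synaptic and neurosecretory genes in 12 of 61 (19.7%, 10.6 to 31.8%) and signalling genes in 15 of 116 (12.9%, 7.42 to 20.4%), against 1.84% of all autosomal protein-coding genes. The median spans of these lists were 4503, 7344 and 6314 bp, against 1964 bp over all these genes, and the part of gene length in their shares was not tested. Adhesion and matrix genes, of median 10415 bp, were hosts in 3 of 69 cases, ion channel genes, of 7618 bp, in 2 of 81 and muscle and cytoskeleton genes, of 6484 bp, in 1 of 95. Listed chromatin genes were hosts in 6 of 95 cases, RNA-binding genes in 4 of 121 and ribosomal protein genes in 2 of 79. The host let-526, with a top signal of 205.9, was not counted on the chromatin list. Nor were the hosts hrpk-1 and nova-1 on the RNA-binding list, so low counts can reflect incomplete lists.

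On the transcription factor list, ceh-38 came first, then fkh-7, a forkhead gene, at 170.6 (72.5 in replicate 1 and 102.9 in replicate 2) in an exon of a noncoding transcript. The MEIS homeobox gene unc-62 had 154.8 (73.9 and 81.8) in a 5′ UTR and zip-2, a bZIP gene of the pathogen response, had 151.5 (77.1 and 77.3), 202 bp upstream of an internal start. The heterochronic gene lin-28, on this list and on that of RNA-binding genes, had 130.2 (46.7 and 82.7), 99 bp upstream of an internal start. It encodes an RNA-binding protein rather than a transcription factor, but is counted among the 22 hosts of this list. The TFEB homolog hlh-30 and the MEF2 homolog mef-2 each held 2 peaks, the stronger at 110.6 and 96.5.

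Of the synaptic hosts, the Gq gene egl-30 had 195.2 (105.0 in replicate 1 and 91.1 in replicate 2) in a 5′ UTR and the Rab2 gene unc-108 had 151.5 (74.7 and 77.2) in its first intron. The Gs gene gsa-1 had 140.8 (67.9 and 73.9), 333 bp upstream of an internal start, and the synaptic vesicle GTPase gene rab-3 had 120.6 (61.0 and 60.2) in its first intron. Signalling hosts were led by daf-5, then the ERK gene mpk-1, at 171.7 (81.9 and 87.1) in a first intron of 8247 bp, and the SMAD gene daf-14, at 155.7 (66.6 and 88.8). All of these were among the strongest candidates of both replicates. Hosts on the chromatin list besides zfp-1 included pbrm-1, the polybromo subunit gene of a SWI/SNF complex, at 177.7 (61.7 and 115.4), and ash-2, of the COMPASS methyltransferase, at 159.1 (76.0 and 78.5).

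Windows that reach 50 bases either side of the summit held GAGAGA more often in introns than in exons. GAGAGA or its complement was in 132 of the 401 windows (32.9%, 28.3 to 37.8%), in 27.4% of the other autosomal peaks' windows (24.5 to 30.4%), and in 4.92% of equal tiles laid end to end through the protein-coding genes. In first introns it was in 50 of 102 windows (49.0%, 39.0 to 59.1%), in later introns in 57 of 171 (33.3%) and in exons in 25 of 128 (19.5%, 13.1 to 27.5%); among intronic tiles the share was 4.29%. ACGCAG was in 65 of the 401 (16.2%), in 20.7% of other autosomal windows and in 1.83% of tiles. CGTCTC was in 84 (20.9%), in 21.9% of other autosomal windows and in 2.83% of tiles. The joint GAGACGCAG was in 35 (8.73%, 6.15 to 11.9%), in 9.64% of other autosomal windows and in 0.329% of tiles. The strings were taken from earlier results on these same data. Their excess over tiles is therefore a description and cannot serve as support for them. Base composition differed too. GC content was 46.8 ± 7.8% in the members' windows (SD, n = 401) and 48.4 ± 6.7% in their intronic windows (SD, n = 273). It was 47.6 ± 7.6% in other autosomal windows (SD, n = 892), 36.3% over all tiles and 33.0% over intronic tiles. Among members it was 47.5 ± 7.1% in first introns (SD, n = 102), 48.9 ± 6.4% in later introns (SD, n = 171) and 43.5 ± 9.0% in exons (SD, n = 128). The part of GC content in the shares was not tested.

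Members with the joint match had a median signal of 115.2 (n = 35) and those without it 82.0; 5 of the 25 strongest had one. Matches to GAGACGCAG lay at a median of 15 bp from the summit. On the host's annotated (coding) strand CGTCTC was in 59 windows, and on the other strand in 31. For GAGAGA these windows numbered 60 and 85, and for ACGCAG 30 and 37. A window with matches on both strands counts in both. The tiles were counted without regard to strand, so these splits have no background beside them and show no preference of the peaks.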

How the data were processed

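Peak lists in narrowPeak format on the ce11 build were used: the optimal list, thresholded on the irreproducible discovery rate per the deposited listings, the pooled candidates and the candidates of each replicate. The authors' deposited signal value ranks peaks within a list, and their deposited -log10 q value, with a ceiling of 3.53, was only inspected. The aligner, peak caller and threshold are not given in the sources used here, and read depth is unknown. The ce10 lists were not used, because the annotation is WBcel235.

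Summits were placed in Ensembl release 115 genes (Python 3.11.15, pandas 2.3.3, SciPy 1.17.1). Exon took precedence over intron, over all hosts and transcripts. Starts and nested noncoding genes were sought over all hosts. The intron was that of the shortest host with an intron at the summit. Span, position along the host and number of starts were taken from the shortest host. Base shares count every autosomal base once by the same rules. Intervals are exact (Clopper-Pearson, 95%). With 1 group and 2 replicates no test between conditions was possible, and none was made. Positions of known class were drawn from the same annotation by the same rules, and 500 of 500 were recovered. Recovery was largely built in, so this checks only that the rules run and cannot support the classes. Replicates were compared by overlaps of at least 1 bp.

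The members, the gene lists, the motif strings and all choices were made with earlier results of these data known. Named genes were drawn mainly from hosts of the 25 strongest members, hosts of 2 or more, and the 5 strongest per location and list. Others came from the 3 strongest per noncoding class, the 3 weakest, and the hosts of the 5 deepest summits, longest spans and longest introns. Not all genes that met these rules are named.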

Additional observations from a re-analysis of the deposited data

How the results depend on the processing

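The count of 401 was 403 by peak midpoints, 327 with summits at least 200 bp inside both gene ends, and 415 and 425 in as many of the strongest candidates of 1 replicate alone; the upper 50% of the list held 175. The intron share stayed between 65.1 and 71.1% under its 5 alternatives. The first-intron share was 36.7 to 42.7% except along the shortest transcript over the summit (52.7%), where fewer exons precede it by construction. Either replicate alone gave 24.0 to 24.6% near internal starts and 20.0 to 20.2% near nested noncoding genes. Windows set these shares directly: 15.7% within 250 bp and 36.4% within 1000 bp of an internal start, against 4.68 and 14.6% of bases; 10.5% inside and 26.9% within 500 bp of a nested noncoding gene, against 1.22 and 9.01% of bases. Motif shares were 18.2% with 25 and 49.4% with 100 bases on either side for GAGAGA, and 8.23 and 25.7% for ACGCAG; in tiles of the same lengths they were 2.45 and 9.54%, and 0.889 and 3.67%. Overlap with both replicates was 32.4% when only the upper 50% as many candidates were taken per replicate, and 97.1% among the members in the upper 50% of the list. The members' median signal was 0.925 of that over all peaks in the pooled list and 0.935 to 0.948 of it in single replicates. After the data were seen, host genes were compared too: replicate 1 alone gave 333 hosts, sharing 252 with the 317, and replicate 2 alone 338, sharing 264. No paired analysis was possible because there is 1 group. The unknown depth limits all statements on weak peaks near the floor of 60.3.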
